A study of Mus musculus with 6 samples.

Results

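Hox genes encode homeodomain transcription factors that set position along the head-to-tail axis of the embryo. They stand in 4 clusters, HoxA to HoxD, in which the order of the genes follows the order of the body regions where they act, so that group 1 genes mark the hindbrain end and group 13 genes the tail end. Genes of the same number in different clusters are paralogs. In cells that do not use them, Hox clusters are known as broad domains of H3K27me3, the mark of Polycomb repression, while H3K9me3, trimethylated lysine 9 of histone H3, is best known from repeat-rich heterochromatin. Neural stem cells of the cortex come from the forebrain, which lies in front of the Hox-expressing part of the nervous system.

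The members were all protein-coding genes of the GENCODE mouse annotation named Hoxa, Hoxb, Hoxc or Hoxd with a number, which gave 39 of the 21938 protein-coding genes outside the mitochondrial genome. Each cluster was taken from the outer edge of its first to its last Hox gene, with 200 kb on each side as flanks. On mm10, HoxA (11 genes, minus strand) spans chr6:52155590-52260880, HoxB (10 genes, Hoxb13 to Hoxb1, plus strand) chr11:96194316-96368256, HoxC (9 genes, Hoxc13 to Hoxc4, plus strand) chr15:102921103-103036852, and HoxD (9 genes, Hoxd13 to Hoxd1, plus strand) chr2:74668310-74765142. The gene models overlap in places, and 11 of the 39 Hox genes share bases with another Hox gene, so that the members are not independent of each other.

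H3K9me3 was profiled by ChIP-seq in neural stem cells cultured from the cerebral cortex of C57BL/6J embryos at E12.5 with EGF and FGF. All cells were transduced with a lentivirus and selected with puromycin, the shCTR libraries with a scrambled shRNA and the shPHF8 libraries with an shRNA against PHF8, a histone demethylase with a PHD finger and a JmjC domain. There were 2 ChIP libraries per condition, each with its own list of called peaks, and 1 input per condition, not used here. The lists give positions only, so the value per library is the number of bases under called peaks, read depth is not in them, and neither the identity of the cells nor the loss of PHF8 can be checked from them. The mark is named here as the labels name it, although the antibody given in the study's ChIP section is the one its reagent list enters for H4K20me1. That list also holds an H3K9me3 antibody, and the study's appendix counts reads of H3K9me3 and H4K20me1 libraries separately. The ChIP section does not say which antibody was used for the H3K9me3 libraries, so this remains unclear.

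The libraries held 44316 to 55555 peaks on the chromosomes used. Peaks covered 157 and 160 Mb in the shCTR libraries and 219 and 197 Mb in the shPHF8 libraries, which is 5.75 to 8.04% of the genome. Of the 100 kb windows with a peak, 37.9% had more covered bases in both shPHF8 libraries than in both shCTR libraries and 8.77% had fewer. All differences between conditions given for the Hox clusters stand against that background. Nothing in the labels says that the libraries of a condition came from separate cultures, so p-values measure only the spread between these libraries. With 2 libraries against 2, the smallest p that an exact permutation test can give is 0.333.

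Called H3K9me3 peaks lay over nearly the whole of HoxA, HoxC and HoxD and over most of HoxB in all libraries. Of the 105 kb of HoxA, shCTR peaks covered 98.5% in replicate 1 and 98.1% in replicate 2, and shPHF8 peaks covered 97% and 96.8%. Values are given in this order of replicates throughout. HoxD had 97.4 and 98.1% of its 96.8 kb covered in shCTR, and 98.6 and 97.3% in shPHF8. HoxC had 93.1 and 96.2% of its 116 kb covered in shCTR, and 99.1 and 93.6% in shPHF8. HoxB, the longest cluster at 174 kb, was the least covered, with 73.3 and 76.8% in shCTR and 85.1 and 82.8% in shPHF8. The midpoint of the cluster lay in a called peak in all 16 combinations of cluster and library, so that no peak-free stretch held a cluster's centre.

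**Figure D1:**
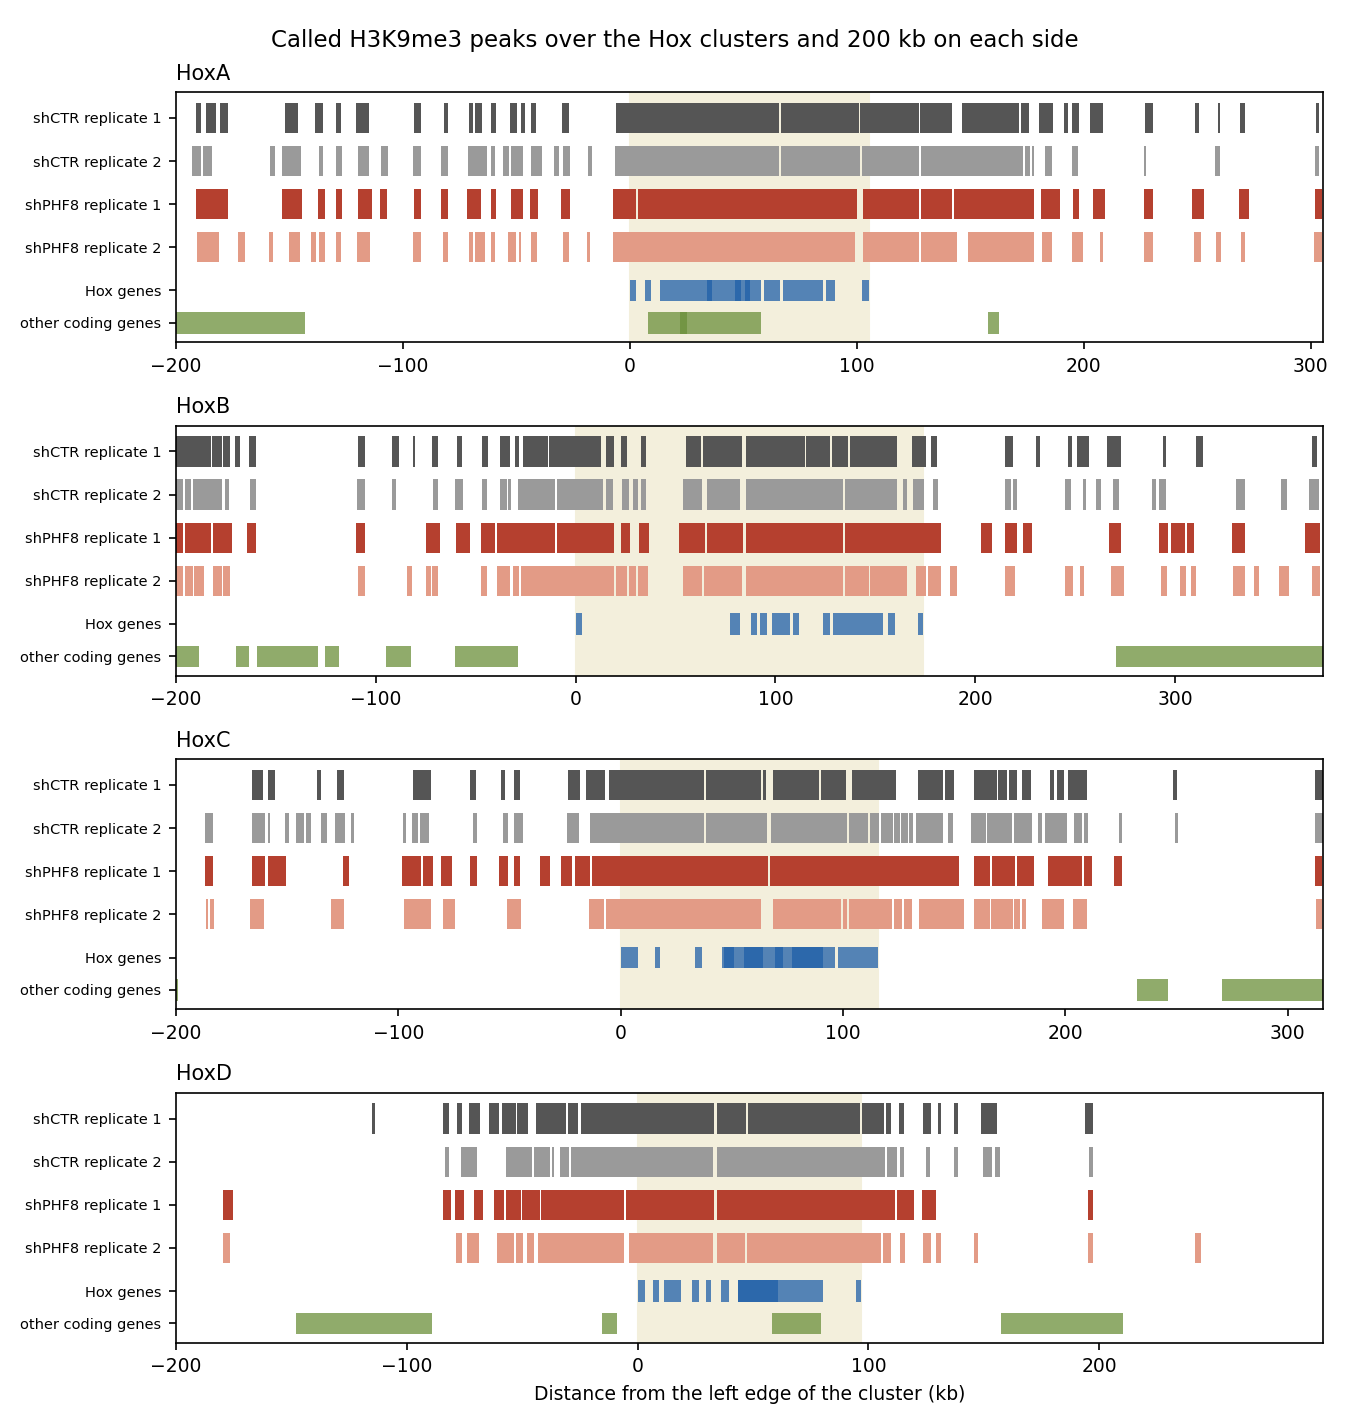
Called H3K9me3 peaks (bars) in each ChIP library over the 4 clusters (shaded) and 200 kb on each side. The x axis is the distance from the left edge of the cluster in kb, and the lower rows show the Hox genes and the other protein-coding genes. Peaks run together over the clusters in all 4 libraries and stand apart from each other in most of the flanks, and the widest opening inside a cluster lies in HoxB.

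The peaks over the clusters were among the widest of each library. The widest peak touching HoxA measured 71800 and 72000 bp in the shCTR libraries (ranks 3 and 4 by width) and 96800 and 106600 bp in the shPHF8 libraries (ranks 2 and 3). The widest peak of HoxD ranked between 3 and 10, that of HoxC between 6 and 19, and that of HoxB between 11 and 48. A typical peak was far narrower, with a median width of 2400 to 4200 bp.

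Across the genome, coverage of this kind was rare. Of 27247 windows of 100 kb, 0.492% had at least 50% of their bases covered in all 4 libraries, and 8 of the 9 windows that touch a Hox cluster were among these 134. The remaining one, with 5685 bases of the HoxB end at Hoxb13, reached 49.4% in its least covered library. At 80% in all libraries 22 windows were left, of which 4 touched a Hox cluster. The window over the Hoxa5 to Hoxa13 end of HoxA had 95% or more in each library and rank 4 of all windows. The median window had 2.00 to 3.20% of its bases covered.

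**Figure D2:**
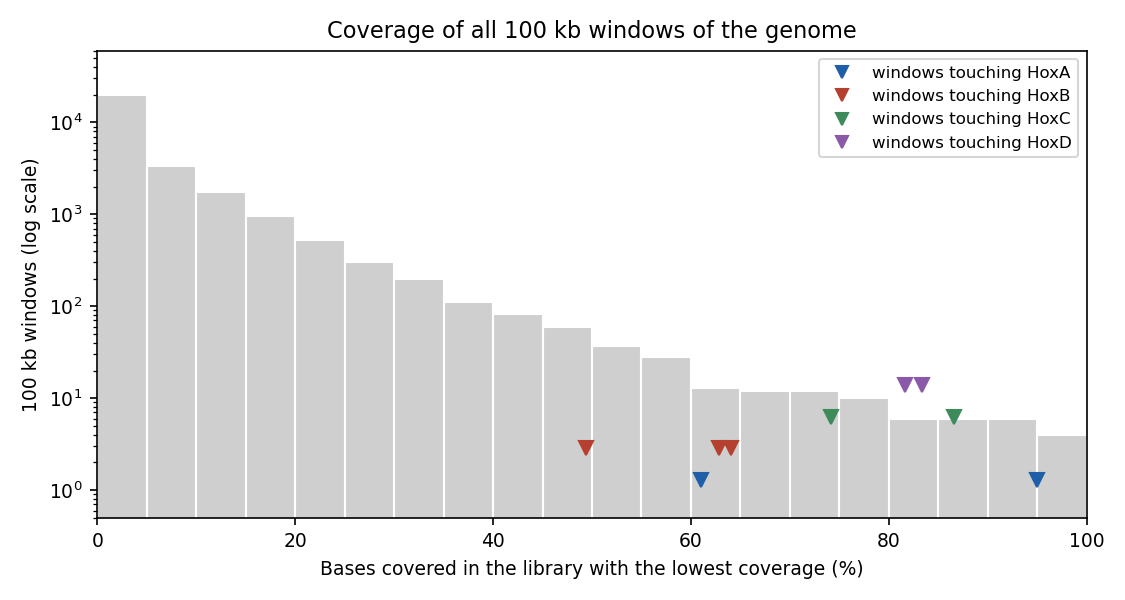
Number of 100 kb windows of the genome (y axis, log scale) by the percentage of bases under called peaks in the library where that percentage is lowest (x axis). Triangles mark the 9 windows that touch a Hox cluster, which lie between 49.4 and 95%, and their height on the plot carries no value.

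All 39 Hox genes had at least 50% of the gene covered in all 4 libraries, against 2.47% of protein-coding genes. In 27 of them the gene was covered to the last base in all libraries, against 0.643% of protein-coding genes. All 39 also had a peak within 3 kb of the gene in at least 1 library, which 54.6% of protein-coding genes had. A peak lay within 3 kb of the start of all 39 genes in all 4 libraries, against 11.1% of protein-coding genes, and at 29 of the 39 starts every base of the 6001 bp window was covered in all libraries, against 0.556%.

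At the ends of the clusters, coverage ran through the last gene in most libraries. Hoxd13, Hoxc13 and Hoxb13, group 13 genes of the tail end, were covered to the last base in every library, as was Hoxb1, a group 1 gene known for its role in the hindbrain. Hoxd1 was covered fully in 3 libraries and to 74.9% in shCTR replicate 1, the lowest value of any Hox gene in any library. Hoxc4, the last gene of HoxC, had 86.6 and 91.1% in shCTR and 100 and 90.0% in shPHF8. Hoxa13, whose product is needed in the limb end and the hindgut, had 100 and 90.4% in shCTR and 84.1% in both shPHF8 libraries.

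Inside the clusters the genes that were not covered to the last base mostly missed short stretches, the longest a 5600 bp gap of shPHF8 replicate 2 in Hoxc5. Hoxa7 had 91.1% in both shCTR libraries and 100% in both shPHF8 libraries. Hoxb3 had 96.7 and 95.9% in shCTR and 96.7 and 92.7% in shPHF8, and Hoxb4 had 92.9% in shCTR replicate 1 and 100% in the other libraries. Hoxc9 had 88.5 and 100% in shCTR and 100 and 87.3% in shPHF8. Hoxc5 and Hoxd3, long gene models that run across other Hox genes, had 88.8 to 98.0% and 97.8 to 100%. Hoxc6 had 94.1% in shCTR replicate 1 and 100% in the others, and Hoxd4 had 95.4% in shCTR replicate 1 and shPHF8 replicate 2 and 100% in the others. None of these genes was left without a peak in any library.

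Grouped by position in the body axis, 14 of the 16 posterior genes (groups 9 to 13) were covered to the last base in all libraries, 8 of the 11 central genes (groups 5 to 8) and 5 of the 12 anterior genes (groups 1 to 4). The median over genes of the mean percentage was 100% in the posterior and central groups and 98.9% in the anterior group. The anterior genes include the longest models of HoxA, HoxB and HoxD, and a longer gene has more bases that can fall into a gap. Hoxa3, the longest of HoxA with 44275 bp, was covered to the last base in all libraries. The short anterior genes Hoxd1 (2163 bp) and Hoxb4 (3372 bp) were not. Whether length bears on these counts was not tested, and they are a description.

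The promoters of 22 Hox genes, 24 windows, were matched by symbol in the RefSeq promoter table for GRCm38.p6, the assembly also named mm10. The 250 bases before the start were covered to the last base by peaks in all 4 libraries at each of the 24. These are RefSeq starts. In 17 windows they lay within 100 bp of the GENCODE start used for the values by gene, and in the other 7 farther away, such as 3281 bp inside the GENCODE model of Hoxa7 and 10049 bp inside that of Hoxd4. Their CpG content, which marks promoters of CpG island type, was counted as the letters CG on the printed strand, which reads the same on the other. It ranged from 2 to 35 with a median of 12.5, against a median of 6 over 32851 promoters of all genes, 31.5% of which had 12.5 or more. Since all 24 windows were covered, coverage could not separate CpG-rich from CpG-poor Hox promoters. The share of the 32851 promoters covered in this way was not counted. Shown as examples are the sequences of Hoxa13 (35 CG) and Hoxd13 (31 CG), at the outer ends of their clusters, and of Hoxd4 (3 CG). Each is given 5′ to 3′ on the strand of the gene, ending at the base before the start, with CG in capitals. They lie at chr6:52260881-52261130 (minus strand), chr2:74667975-74668224 (plus strand) and chr2:74721728-74721977 (plus strand).
Hoxa13: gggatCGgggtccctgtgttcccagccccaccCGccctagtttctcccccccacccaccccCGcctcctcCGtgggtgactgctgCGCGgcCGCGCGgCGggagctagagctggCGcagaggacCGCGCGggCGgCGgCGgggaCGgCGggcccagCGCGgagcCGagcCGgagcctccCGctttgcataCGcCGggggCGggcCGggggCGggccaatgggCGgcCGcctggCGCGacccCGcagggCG
Hoxd13: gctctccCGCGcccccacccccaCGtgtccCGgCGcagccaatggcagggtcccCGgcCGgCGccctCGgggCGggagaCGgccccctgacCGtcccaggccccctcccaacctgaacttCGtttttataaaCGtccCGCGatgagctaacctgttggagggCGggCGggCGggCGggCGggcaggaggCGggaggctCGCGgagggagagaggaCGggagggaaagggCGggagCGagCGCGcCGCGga
Hoxd4: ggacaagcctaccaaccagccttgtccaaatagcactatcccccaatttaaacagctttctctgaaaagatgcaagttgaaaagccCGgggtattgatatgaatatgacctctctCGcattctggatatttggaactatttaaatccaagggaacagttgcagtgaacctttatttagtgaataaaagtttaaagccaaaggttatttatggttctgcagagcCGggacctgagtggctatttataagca

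Most noncoding genes of the clusters were covered as well. Of 43 noncoding genes that overlap a cluster, 35 were covered to the last base in all libraries, and 4 had no covered base in at least 1 library. The share over all noncoding or miRNA genes of the genome was not counted. These genes lie in clusters covered to 73.3% or more, so the count describes their position. Among the 35 were Hotair in HoxC, a long noncoding RNA known for its ties to Polycomb, Haglr beside Hoxd1, and Hoxaas3 and Hoxa11os on the strand opposite to the HoxA genes. Gm53, a lincRNA in the long space of HoxB, had 92.7 and 79.7% in shCTR and 92.7% in both shPHF8 libraries. The 4 genes include 9530018H14Rik before Hoxa13, with 443 and 583 bp covered in shCTR and 0 bp in both shPHF8 libraries, and the pseudogene Gm11539 in HoxB, with 0 bp in shCTR replicate 1 and all of its 557 bp in the others.

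Of 7 genes annotated as miRNA, the 6 with a Mir name were covered to the last base in every library, and Gm44463 in HoxD had all of its 137 bp covered in the first and 0 bp in the second replicate of each condition. Hox clusters carry the miR-10 and miR-196 families, which are known to target Hox mRNAs. The mature sequences, from RefSeq, are shown because the covered genes fall into seed families that recur between clusters, with the seed (bases 2 to 8) in capitals. Mir10a (HoxB, chr11:96317186-96317208 for the 5p arm) and Mir10b (HoxD, chr2:74726074-74726096) share the seed ACCCUGU. Mir196a-1 (HoxB), Mir196a-2 (HoxC) and Mir196b (HoxA) share AGGUAGU, and Mir615 (HoxC) stands alone.
miR-10a-5p: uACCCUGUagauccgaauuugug
miR-10b-5p: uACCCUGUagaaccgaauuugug
miR-196a-5p: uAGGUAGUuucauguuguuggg
miR-196b-5p: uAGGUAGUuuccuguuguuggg
miR-615-3p: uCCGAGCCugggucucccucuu

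Only 6 stretches inside the clusters, 19800 of 491815 bases, were free of peaks in all 4 libraries. Of these, 3 lay between the group 9 and the group 8 gene of HoxB, HoxC and HoxD, and ended 2505, 2207 and 2015 bp upstream of the group 8 start. This position was noticed after the values were seen. In HoxB and HoxD the stretch lay closer to the end of the group 9 gene than to the group 8 start. In shCTR replicate 2 the HoxB gap began at 96276601, beside the end of Hoxb9 at 96276595. In shPHF8 replicate 2 the HoxC gap began inside Hoxc9. At Hoxb8 the gap of shCTR replicate 1 ran from 4504 to 2305 bp upstream of the start and that of shCTR replicate 2 from 5304 to 2505 bp. In shPHF8 replicates 1 and 2 it ran from 3904 and 4304 bp to 2505 bp upstream, so that 3 of the 4 libraries share the edge toward the gene. At Hoxd8 the gap measured 1200 and 1800 bp in shCTR and 1400 and 1800 bp in shPHF8, with its near edge 1815 to 2015 bp upstream. At Hoxc8 it measured 2800 and 1800 bp in shCTR and 1000 and 5600 bp in shPHF8, with its near edge 1007 to 2207 bp upstream. The lengths of the conditions overlap at Hoxc8 and Hoxd8, and at Hoxb8 both shPHF8 gaps (1400 and 1800 bp) were shorter than both shCTR gaps (2200 and 2800 bp). The 1 kb on each side of the starts of Hoxb8, Hoxc8 and Hoxd8 was covered in full in every library.

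HoxA has no group 8 gene. There the gap of the shCTR libraries lay on the start of Hoxa7 in the GENCODE annotation, from 146 bp upstream to 653 bp inside the gene, at the same 800 bp in both replicates, and no gap was called there in either shPHF8 library. A gap of this length is the shortest distance between peaks in any of the lists, so it says no more than that 2 peaks in shCTR were called as 1 in shPHF8.

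**Figure D3:**
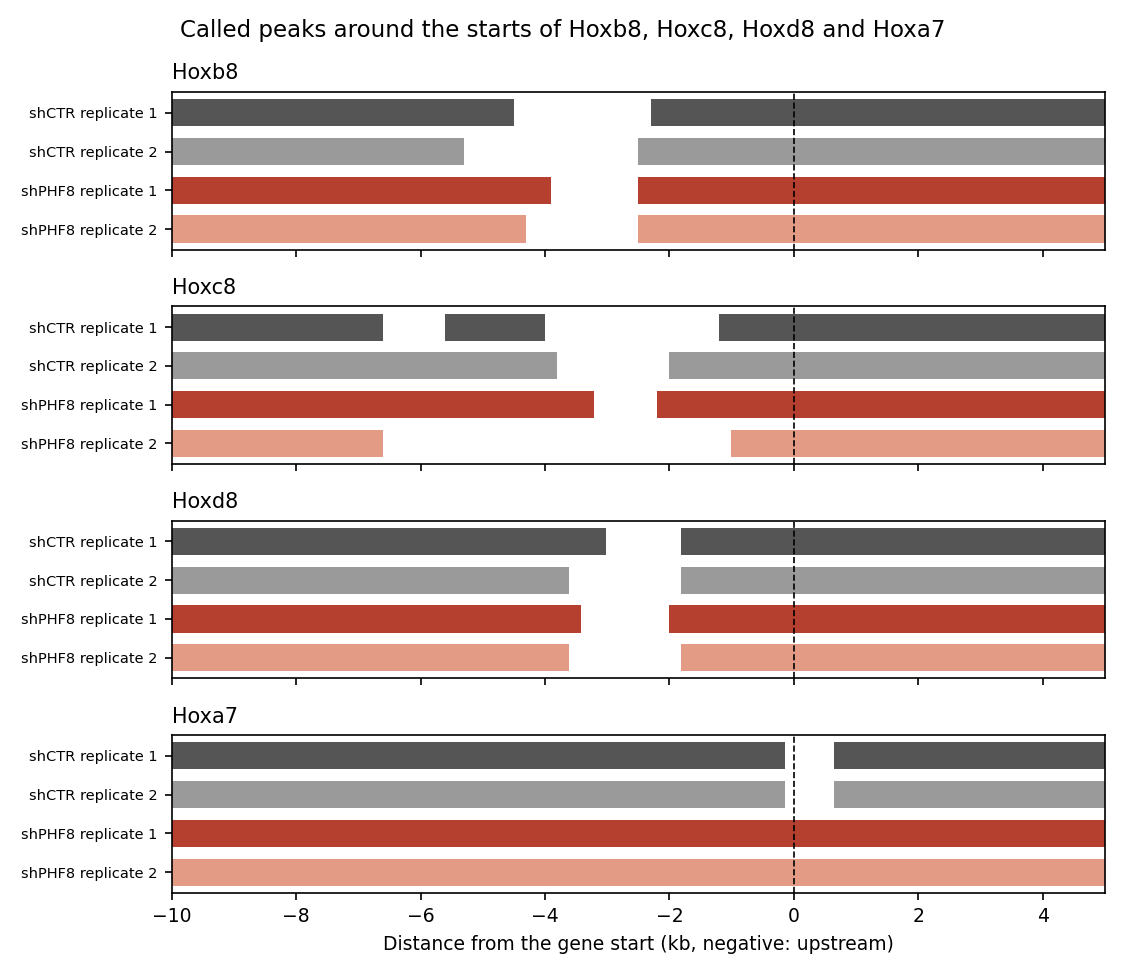
Called peaks (bars) in each library around the starts of Hoxb8, Hoxc8, Hoxd8 and Hoxa7, by distance from the start in kb in the direction of transcription. All 4 libraries leave a stretch open 1.01 kb or more upstream of the 3 group 8 genes, and the shCTR libraries alone leave 800 bp open at the GENCODE start of Hoxa7. The RefSeq start of Hoxa7 lies 3281 bp inside that model, and the 250 bases before it were covered in all libraries.

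The middle 300 bases of the 3 stretches free of peaks in all libraries are shown on the plus strand of GRCm38.p6, which is the strand of these clusters, with CG in capitals, since they are where the peaks stop in each cluster. They lie at chr11:96278551-96278850, chr15:102987751-102988050 and chr2:74701951-74702250. None overlaps an annotated exon, and the HoxC stretch lies in an intron of the Hoxc5 model. The whole stretches, 1400, 1000 and 1000 bp long, hold 25.7, 26 and 17 CG per kb, and soft-masked repeats take 15.5, 12.8 and 21.5% of them. The longest run of identical letters shared by any pair of the stretches, on either strand, was 12 bp, between HoxC and HoxD.
Upstream of Hoxb8: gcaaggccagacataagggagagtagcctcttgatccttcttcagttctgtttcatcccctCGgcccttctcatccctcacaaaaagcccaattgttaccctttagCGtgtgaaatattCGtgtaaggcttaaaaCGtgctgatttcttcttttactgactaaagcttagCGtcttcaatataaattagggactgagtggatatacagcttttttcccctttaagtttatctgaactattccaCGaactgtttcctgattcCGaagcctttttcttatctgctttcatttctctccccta
Upstream of Hoxc8: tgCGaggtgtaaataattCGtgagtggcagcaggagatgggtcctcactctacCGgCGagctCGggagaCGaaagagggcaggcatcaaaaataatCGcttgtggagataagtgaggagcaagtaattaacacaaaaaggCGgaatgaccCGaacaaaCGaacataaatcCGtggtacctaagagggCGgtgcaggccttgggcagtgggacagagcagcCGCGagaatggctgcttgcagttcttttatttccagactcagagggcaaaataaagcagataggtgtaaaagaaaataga
Upstream of Hoxd8: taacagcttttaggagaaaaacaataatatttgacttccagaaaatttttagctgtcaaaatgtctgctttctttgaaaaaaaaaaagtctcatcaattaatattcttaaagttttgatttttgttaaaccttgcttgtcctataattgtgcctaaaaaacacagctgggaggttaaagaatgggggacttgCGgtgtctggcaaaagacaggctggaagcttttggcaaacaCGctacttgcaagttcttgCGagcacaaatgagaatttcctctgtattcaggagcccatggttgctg

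The other 3 stretches free of peaks were 400 bp between Hoxa11 and Hoxa13, at chr6:52256801-52257200, and 1200 and 14800 bp in the long space between Hoxb13 and Hoxb9. The gap before Hoxa13 measured 800 and 1200 bp in shCTR and 2400 and 3400 bp in shPHF8, so that it was wider in both shPHF8 libraries. Of 27 spaces between neighbouring Hox gene models 17 were covered to the last base in all libraries. Gaps of single libraries or of the shCTR pair left others open in part, such as that between Hoxb4 and Hoxb3, with 43% covered in shCTR replicate 1 and 100% in the others, and that between Hoxc11 and Hoxc10, with 89% in both shCTR libraries and 100% in shPHF8.

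The space between Hoxb13 and Hoxb9, 74.0 kb at chr11:96197448-96271456, held most of the uncovered bases of HoxB. It had 54.3 and 58.7% of its bases covered in shCTR, and 67.8 and 70.8% in shPHF8. The part from Hoxb9 to Hoxb1, 96.8 kb with the other 9 genes, had 87.0 and 89.9% in shCTR and 97.7 and 91.3% in shPHF8. The long space is poorer in CG (14.8 per kb against 25.5) and richer in soft-masked repeats (34.1 against 18%) than the gene-dense part. In the latter, the space between Hoxb2 and Hoxb1 was the most open in shCTR replicate 1, with 35.3% covered, and had 48.9% in shCTR replicate 2, 100% in shPHF8 replicate 1 and 59.1% in shPHF8 replicate 2.

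Between the conditions, HoxB had more covered bases in both shPHF8 libraries and HoxA had fewer. HoxB had 127541 and 133541 bp in shCTR and 147941 and 143941 bp in shPHF8, a difference of means of 15400 bp and a ratio of 1.12 (exact two-sided permutation test, p = 0.333, n = 2 and 2). Both parts of HoxB contributed, with 9500 bp in the long space and 5900 bp from Hoxb9 to Hoxb1, and in each the conditions did not overlap. HoxA had 103691 and 103291 bp in shCTR and 102091 and 101891 bp in shPHF8, a difference of -1500 bp and a ratio of 0.986 (exact permutation test, p = 0.333). With peaks joined across up to 5 kb the HoxA difference was 0 bp, since it rests on gaps of that size, and with 10 kb added on each side it was -300 bp with the conditions overlapping. HoxC differed by 2000 bp (exact permutation test, p = 0.667) and HoxD by 171 bp (p = 1 by the same exact test), and their conditions overlapped. Summed over the clusters, shCTR had 438244 ± 7030 bp (SD, n = 2) and shPHF8 454315 ± 8344 bp (SD, n = 2), a ratio of 1.04 (exact permutation test, p = 0.333) and a difference of 16071 bp, or 10171 bp without shPHF8 replicate 1 and 7300 bp with peaks joined, where the conditions overlapped. A cluster already covered to 97% or more cannot gain many bases, which bounds these differences from above. Total covered length rose by a larger ratio, from 157 and 160 Mb in shCTR to 219 and 197 Mb in shPHF8.

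By gene with 3 kb on each side, 17 of the 39 Hox genes had the same number of covered bases in all 4 libraries. In each of them this was every base of the window. Of all protein-coding genes with a peak, only 64 had the same number in all libraries. A window full in shCTR cannot be higher in shPHF8, so the share of Hox genes called higher is bounded from above. In 6 both shPHF8 libraries lay above both shCTR libraries, against 27.4% of the 11979 protein-coding genes with a peak, and in 1 both lay below, against 12.8%. The 6 were Hoxa7, Hoxa9, Hoxb2, Hoxb9, Hoxc4 and Hoxc11, and the 1 was Hoxa13. Hoxa13 had 8387 and 7987 bp in shCTR and 6787 and 5787 bp in shPHF8. Hoxa7 and its neighbour Hoxa9 differ by the same 800 bp gap. Hoxb2 had 7676 bp in both shCTR libraries and 9488 bp in both shPHF8 libraries, all of the window. Hoxc11 had 8282 and 9282 bp in the same order. Changes in peak height within covered bases are not seen in these values.

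The covered state did not end at the last Hox gene. In the first 10 kb outside the 8 cluster edges 83.5 and 83.2% of bases were covered in shCTR and 93.3 and 88.4% in shPHF8. From 10 to 20 kb the values were 54.1 and 63.7% in shCTR and 72.6 and 63.2% in shPHF8. From 100 to 110 kb they had dropped to 9.22 and 11.1% in shCTR and 20.3 and 8% in shPHF8. Values were higher again in the outermost 10 kb of the flanks, with 22.2 and 27% in shCTR and 29 and 23% in shPHF8. In 6 of the 8 flanks the inner 100 kb held more covered bases than the outer 100 kb in every library. The exceptions were the left flank of HoxA, where both values were close in shPHF8 (34.8 and 37.6% in replicate 1, 31.6 and 32.2% in replicate 2), and the right flank of HoxB in shCTR replicate 2, with 18.5% in the inner and 19.2% in the outer 100 kb.

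**Figure D4:**
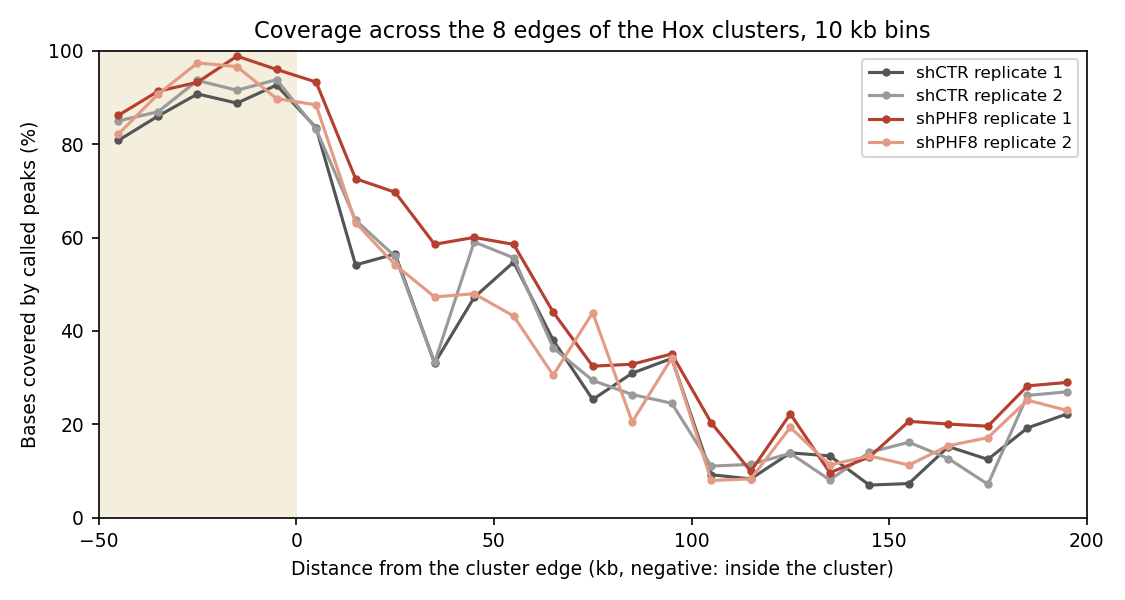
Bases under called peaks (y axis, %) in 10 kb bins by distance from the cluster edge (x axis, kb), over the 8 edges of the 4 clusters, 1 line per library. Negative distances (shaded) lie inside the cluster. Coverage is above 80% inside in every library and falls to 20.3% or less from 100 to 110 kb outside, and lies between 22.2 and 29% in the outermost 10 kb.

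The borders differed between clusters. At the Hoxa13 side of HoxA, a peak that began inside the cluster ran on for 21920 bp in 3 libraries and 22120 bp in shPHF8 replicate 1. With peaks of a library joined where at most 5 kb lay between them, HoxA with its right flank made 1 domain of 214.8 and 192.4 kb in shCTR and 197 and 193.6 kb in shPHF8. It reached 80720 to 103320 bp beyond Hoxa13, past Evx1. The joined domain of HoxD reached 56909 to 84109 bp beyond Hoxd13, past Evx2, and 18658 to 32658 bp beyond Hoxd1. Evx1 and Evx2 are homeobox genes at the group 13 ends of HoxA and HoxD. HoxB was the only cluster in more than 1 joined domain in every library (4 domains in shCTR replicate 1 and 2 in the others).

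HoxC was uneven between libraries. Its joined domain measured 147.6 and 163 kb in shCTR and 179 kb in shPHF8 replicate 1, while in shPHF8 replicate 2 the cluster was broken by the 5600 bp gap upstream of Hoxc8 and the widest piece measured 114 kb. Beyond Hoxc4 it reached 7948 and 33548 bp in shCTR and 36548 and 66748 bp in shPHF8.

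In the 8 flanks together 29.3 and 30.8% of bases were covered in shCTR and 37.5 and 31.3% in shPHF8, 1.15 times as much in shPHF8 (exact permutation test, two-sided, p = 0.333, n = 2 and 2). The mean was 480541 ± 16587 bp (SD, n = 2) in shCTR and 550370 ± 70286 bp (SD, n = 2) in shPHF8, with a difference of 69829 bp that shrank to 20129 bp without shPHF8 replicate 1 and to 9029 bp, with the conditions overlapping, when only the widest peaks of each library were kept to an equal covered length. Relative to each library's total covered length, the difference turned to -72715 bp, since the flanks rose by less than the genome did. In 2 of 8 flanks both shPHF8 libraries lay above both shCTR libraries, against 44.5% of the 200 kb windows with a peak, and in 0 of 8 both lay below, against 8.12%. Without shCTR replicate 2 or shPHF8 replicate 2, where 1 library has to clear 2, the first count was 5 and 6, and the second was 1, 1 and 2 without shCTR replicate 1, shCTR replicate 2 and shPHF8 replicate 1. The right flank of HoxB had 16.5 and 18.9% covered in shCTR and 30.3 and 27.8% in shPHF8, a ratio of 1.64 (exact permutation test adjusted over the 8 flanks, p = 0.889). The right flank of HoxA had 45.5 and 40.5% in shCTR and 51.8 and 46.1% in shPHF8, a ratio of 1.14 (same exact test, adjusted p = 0.889), and relative to the totals its difference turned from 11900 to -13442 bp. In the other 6 flanks the conditions overlapped. The right flank of HoxD was the least covered, with 13.4 to 15.3%.

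**Figure D5:**
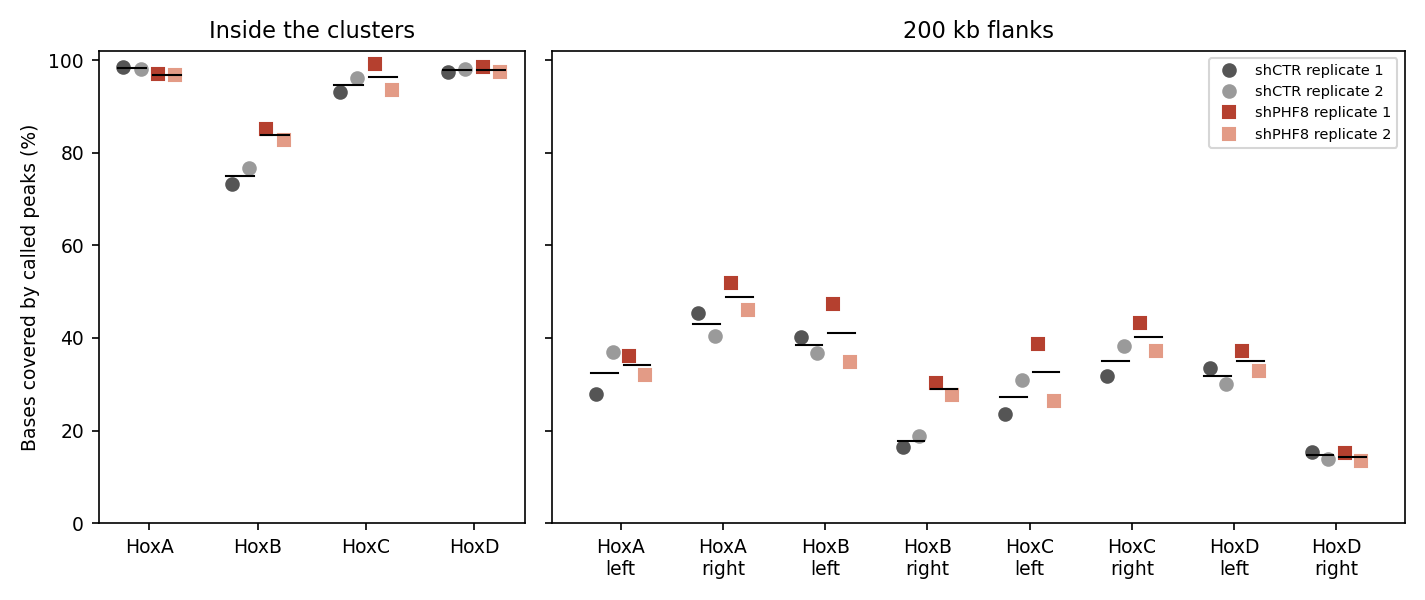
Bases under called peaks (y axis, %) inside each cluster and in each 200 kb flank, with 1 point per ChIP library and a line at the mean of each condition. The conditions do not overlap inside HoxA and HoxB and in the right flanks of HoxA and HoxB, and overlap in the others.

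Most of the protein-coding neighbours in the flanks carried less of the mark than the Hox genes. Evx1, 52617 bp beyond Hoxa13, and Evx2, 8752 bp beyond Hoxd13, were covered to the last base in all libraries. Igf2bp1, an mRNA-binding protein gene at the far end of the left HoxB flank, had 36.9 and 42.5% of the gene covered in shCTR and 34.0 and 36.8% in shPHF8. Ttll6, a tubulin ligase gene, had 38.7 and 35.4% in shCTR, 76.6% in shPHF8 replicate 1 and 37.4% in shPHF8 replicate 2. Skap1, an adaptor gene of T cells whose gene runs out of the right HoxB flank, had 22.5 and 24.3% in shCTR and 35.0 and 28.7% in shPHF8. Its paralog Skap2, left of HoxA, had 13.7 to 21%.

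The remaining neighbours had few covered bases. Gip, Calcoco2, Snf8, Lnpk and Smug1 had a peak within 3 kb in some libraries and none in others. Cbx5, which encodes the heterochromatin protein HP1 alpha, a reader of H3K9me3, had 3200 and 3400 bp covered in shCTR and 2800 and 2400 bp in shPHF8, with no covered base within 3 kb of its start in any library. Ube2z, Atp5g1 and Calcoco1 had no covered base in any library. The predicted genes Gm28308, Gm28230 and 5730596B20Rik lie inside HoxA and HoxD and share their coverage with the Hox genes there, to the last base in all libraries.

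By presence or absence of a peak, all 10 merged regions that touch a cluster were found in all 4 libraries, against 37.9% of 71107 merged regions of the genome. These regions are 16600 to 108800 bp wide and count as found with any covered base, so the count cannot show a change inside them. In the flanks 4 regions were gained (a peak in both shPHF8 libraries and in neither shCTR library) and 5 were lost (the reverse), among the 44 regions of the left and 40 of the right flanks, against 4.28 and 5.03% of all merged regions. Without shCTR replicate 1, shPHF8 replicate 1 or shPHF8 replicate 2 the gained regions numbered 7, 11 and 7. Without shCTR replicates 1 or 2 or shPHF8 replicates 1 or 2, in that order, the lost regions numbered 12, 11, 11 and 8. The widest lost region, 8000 bp at chr2:74817201-74825200, ended 603 bp before the start of Mtx2, a gene for a mitochondrial outer membrane protein, beyond Hoxd1. It had 7000 and 6000 bp covered in shCTR and none in either shPHF8 library. The widest gained region, 7400 bp at chr11:96492401-96499800, lay inside Skap1, with 6800 and 3200 bp in shPHF8 and none in shCTR. The gained region nearest to a Hox gene lay 74302 bp beyond Hoxc13, with 5000 and 5600 bp in shPHF8.

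Of the bases covered in either library of a pair, 92.1 to 94.6% were covered in both inside the clusters and 60.2 to 63.3% in the flanks. Such shares rise with the covered length itself, so the values of clusters and flanks are not comparable as measures of agreement. Inside the clusters the shCTR pair shared 94.6% and the shPHF8 pair 94.1%, and pairs of different conditions shared 92.1 to 94.4%.

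In base composition the clusters differed from their flanks. CG dinucleotides stood at 20.9 to 29.9 per kb in the clusters and 8.58 to 13.9 per kb in the flanks. Soft-masked repeats took 13.4% of HoxA, 14.4% of HoxD, 15.9% of HoxC and 24.6% of HoxB, and 23.9 to 35.7% of the flanks, against a median of 32.8% over 100 kb windows of the genome. HoxB, the least covered cluster, was thus the richest in repeats. Its bases covered in all libraries were 17.5% soft-masked and those covered in none 52.0%. The same direction was found in HoxA, HoxD and 5 of the 8 flanks. It was the opposite in HoxC (15.6% of covered and 12.8% of uncovered bases), in its left flank (23.9 and 23.5%) and in the left (28.1 and 27.6%) and right (31.1 and 25.5%) flanks of HoxD. In HoxA, HoxC and HoxD the bases covered in none were a single stretch of 400, 1000 and 1000 bp. The direction inside these clusters rests on that stretch. In HoxB, 14800 of the 17400 bases covered in none were also a single stretch, between Hoxb13 and Hoxb9 and 54.6% soft-masked. The other HoxB stretches, of 1200 and 1400 bp, were 62.9 and 15.5% soft-masked. The value for uncovered bases of HoxB thus rests mostly on a single stretch too.

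Lists of related genes were counted by peaks within 3 kb of the start in all 4 libraries, for which the share over protein-coding genes is 11.1%. Of 50 homeobox genes outside the clusters, 42 had such a peak, and at 16 every base of the window was covered in all libraries, as at the Hox genes. In the order of covered bases, with ties by name, they began with Barhl1, Cdx2, Evx1 and Irx1, each with the full 6001 bp in every library. The median covered length was 5285 bp in this list, 6001 bp in the Hox genes and 0 bp over all protein-coding genes. Regulators of cortical progenitors in the list, named after their values were seen, differed among themselves. Emx2 and Lhx2 had no covered base within 3 kb of the start in any library, while Pax6 had 4300 and 5300 bp in shCTR and 5500 and 5700 bp in shPHF8, and Emx1 had 5201 and 6001 bp in shCTR and 5001 and 4438 bp in shPHF8. By gene with 3 kb on each side, 8 of the 50 were higher and 5 were lower in both shPHF8 libraries, against 27.4 and 12.8% of protein-coding genes with a peak. Here too, genes with a full window, such as Cdx2 with 12466 bp in every library, cannot be higher.

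Of 9 PBX and MEIS family genes, whose products bind DNA together with Hox proteins, 2 had a peak in all libraries, Pknox1 with 1267 and 1467 bp in shCTR and 1667 and 1467 bp in shPHF8, and Meis1 with 816 bp in 3 libraries and 616 bp in shPHF8 replicate 1. Of 30 genes of Polycomb proteins, which repress Hox genes, 5 did. Cbx7 had 6001 and 5201 bp in shCTR and 6001 and 4719 bp in shPHF8. Cbx8 had 1032 to 3001 bp and Ring1 1921 to 2121 bp. Pcgf1 had 2132 bp in both shCTR libraries and none in either shPHF8 library. Of 15 genes of Trithorax and MLL proteins, which keep Hox genes active, 0 had a peak in all libraries and 1, Wdr5, had one in some, with 844 bp in shCTR replicate 1 and 1044 and 1244 bp in shPHF8. Each of these lists had a median of 0 bp, as all protein-coding genes had.

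Zfp and clustered protocadherin genes, families with members known for H3K9me3, had a smaller share of the gene covered than the Hox genes. The Zfp list takes clustered and isolated genes together, so it does not stand for the marked members alone. Of 365 genes named Zfp with a number, zinc finger genes, 42 had at least 50% of the gene covered in all libraries, which is 11.5%, and in 0 was the gene covered to the last base. Of 57 clustered protocadherin genes 21 did, which is 36.8%, and 1 was covered to the last base. The median percentage of the gene covered was 11.1% for the Zfp genes, 52.1% for the protocadherins and 100% for the Hox genes. At the starts, 44 of the 57 protocadherins and 79 of the 365 Zfp genes had a peak within 3 kb in all libraries, against 11.1% of protein-coding genes. Every base of that window was covered in all libraries at 15 of the protocadherins and 0 of the Zfp genes, against 0.556%. Gene length was not matched between these lists. H3K27me3 was not among the data used here, so whether the same bases carry it could not be compared, and the specificity of the antibody was not tested.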

How the data were processed

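ChIP, for H3K9me3 per the labels, was performed on cross-linked cells and sequenced as single-end reads. The study's reagent list names an H3K9me3 antibody, while its ChIP section names only the one listed for H4K20me1, and methods and labels give different cell numbers. By the study's methods, the authors aligned the reads with SOAPaligner/SOAP2 and called broad peaks with SICER2. The submitters' processing notes name Bowtie2 2.3.5.1, SAMtools 1.9, deepTools and mm10. The peak lists deposited by the authors hold positions and no count, signal or score. The window, gap, threshold and use of the input in peak calling are not given in the sources used here, and these set where a peak ends and which gaps are closed.

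Starts were read as 0-based and ends as inclusive, so that all widths are multiples of 200 bp. Of each list, 2 peaks on other sequences were left out. Covered bases were counted per interval and library with Python 3.11.15 and numpy 2.4.6, checked against bedtools 2.31.1 on simulated peaks. Genes came from GENCODE M21, sequences and soft-masking from GRCm38.p6, promoters and miRNAs from RefSeq. Conditions were compared by exact two-sided permutation tests and by whether their 2 values overlap. Named were the end genes of each cluster, Hox genes and flank genes with a peak within 3 kb, and up to 4 genes per list with the most covered bases around the start. One of the genes counted is not reported here by name. The members and lists were chosen with earlier results of these data known. Alternatives were each library left out, peaks of at least 2000 bp, equal covered length from the widest peaks down, peaks within 5 kb joined, covered bases scaled to the same total, flanks of 100 and 500 kb, other distances from genes, clusters with 10 kb added, at least 50% of a region covered, and the replicate number as a block.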

Additional observations from a re-analysis of the deposited data

How the results depend on the processing

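With 2 libraries against 2 no alternative could pass the threshold of 0.05, so only directions and counts are compared. That all 39 Hox genes and starts had a peak within 3 kb, and that the peak-free stretch at the cluster midpoints was 0 bp, held in every alternative tried. The rise summed over the clusters (16071 bp) kept its direction in all alternatives run for it, 7300 to 22052 bp. Scaling to the same total was run for the flanks only. The clusters rose by a smaller ratio (1.04) than the totals did, so relative to the totals they did not rise. The flank difference ran from 20129 to 119529 bp with a library left out, was 9029 bp with the equal covered length and turned to -72715 bp when scaled to the same total, as did the right flank of HoxA, to -13442 bp. Flanks higher in both shPHF8 libraries (2) numbered 1 with the equal covered length, 1 with peaks joined, 1 when scaled, 4 with flanks of 100 kb and 5 with 500 kb, and 2 to 6 with a library left out. Flanks lower (0) numbered 1 with the equal covered length, 6 when scaled and 0 to 2 with a library left out. Gained regions (4) numbered 1 with peaks joined, 1 with flanks of 100 kb and 8 with 500 kb, and 6 to 11 with a library left out. Lost regions (5) numbered 3 with peaks of at least 2000 bp, 15 with the equal covered length, 3 with flanks of 100 kb and 9 with 500 kb, and 8 to 12 with a library left out. The causes were not tested.

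Equally numbered libraries showed no shared deviation in covered length. Whether they shared a culture or a run cannot be told from the peak lists. Deviations from the condition means of equally numbered libraries correlated at -0.03 over 44182 bins of 30 kb. With the replicate block the differences stayed at 16071 bp inside and 69829 bp in the flanks (exact permutation of pairs, p = 0.5, the smallest possible), and the flanks higher and lower in both pairs numbered 3 and 1.

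The lists carry no read depth or score, so a peak edge, a gap of 800 bp or a lost region can move with depth and threshold, and a change of signal within covered bases is not seen. The study's appendix gives read counts, with fewer mapped reads for shPHF8 replicate 2 than for each of the other H3K9me3 libraries. Covered bases were not adjusted for depth.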
